A study of Mus musculus with 10 samples.

Results

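The mitochondrial chromosome of the mouse carries 37 genes, and all 37 were listed on chrM in the deposited gene counts of the jejunum, among 55414 gene identifiers in all. They were chosen by their chromosome alone, and their symbols are those of 13 genes of messenger RNA, 2 genes of ribosomal RNA and 22 genes of transfer RNA. By their annotated strand, 28 lay on the plus strand and 9 on the minus strand (mt-Nd6 and 8 transfer RNA genes).

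The libraries came from RNA of whole jejunum of male C57BL/6J mice whose Retsat gene was flanked by loxP sites on both alleles. The 5 control samples lacked the villin-Cre-ERT2 transgene and the 5 RetSat ko samples carried it. Control and ko mice alike had 5 days of tamoxifen, followed by 14 weeks on a high-fat diet (60 kcal% fat). Ages are not given in the sources used here. The villin promoter drives this Cre in the epithelium of the intestine, so the other cells of the tissue keep Retsat, and presence of the active Cre cannot be told apart from loss of Retsat. The labels do not say that each sample came from a separate animal, so the p-values cover only the spread between these libraries, which may be technical.

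Mitochondrial DNA is transcribed from both strands into long precursors that are cut at the transfer RNAs, so that most messenger and ribosomal RNAs are released by excision of the transfer RNAs between them. The messenger RNAs encode subunits of respiratory complexes I, III and IV and of the ATP synthase, complex V. The ribosomal and transfer RNAs serve translation inside the organelle, and every protein that transcribes, cuts, modifies and degrades these RNAs is encoded in the nucleus. Enterocytes, the absorptive cells of the jejunum, depend on mitochondria for transport and for fat absorption. RetSat, the product of Retsat, saturates a double bond of retinol.

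Retsat itself (chromosome 6, 72575458 to 72585408, GRCm39) was at 340 to 576 CPM in the 5 control libraries and at 15.4 to 33.4 CPM in the 5 ko libraries. By edgeR's quasi-likelihood test the log2 difference, ko against control, was -4.49 ± 0.277 (SE; adjusted p = 0.000101). CPM are throughout counts per 1000000 counts of the library size after edgeR's TMM scaling. The libraries held 102844680 to 128730695 counts on genes. Summed markers of absorptive enterocytes (10 of 10 genes with counts in every library) were 44754 to 70493 CPM in control and 41599 to 61015 CPM in ko libraries. Of the markers of the other cell types, the pancreatic acinar list varied most between libraries. Its 9 genes summed to 7.58 to 232 CPM in control and 7.88 to 2519 CPM in ko libraries, with the highest value in ko 2, and Prss2, Cela2a, Cpa1, Cel and Try4 at 0 in at least 1 library. In bulk tissue, fewer cells of a type and less RNA per cell cannot be told apart.

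Several mitochondrial genes have near-identical copies in the nuclear genome, and the first lines of 3 pairs are printed. The pairs were picked for the large differences between the counts of their member genes. Each pair gives the first 100 bases of the mitochondrial gene and of its nuclear copy, 5′ to 3′, from the GENCODE M21 transcripts, matched by gene identifier. Capitals mark the bases at which the 2 sequences of a pair differ.
mt-Co2: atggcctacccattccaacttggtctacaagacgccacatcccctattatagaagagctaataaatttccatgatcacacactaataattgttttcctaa
Gm28661: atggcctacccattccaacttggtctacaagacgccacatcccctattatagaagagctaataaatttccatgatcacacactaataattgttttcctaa
mt-Nd3: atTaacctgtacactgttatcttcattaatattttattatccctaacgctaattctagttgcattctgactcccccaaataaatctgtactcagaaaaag
Gm28438: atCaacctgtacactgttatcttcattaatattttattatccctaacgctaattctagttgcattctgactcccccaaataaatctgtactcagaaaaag
mt-Cytb: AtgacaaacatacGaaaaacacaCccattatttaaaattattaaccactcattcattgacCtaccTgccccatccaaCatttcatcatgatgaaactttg
Gm11410: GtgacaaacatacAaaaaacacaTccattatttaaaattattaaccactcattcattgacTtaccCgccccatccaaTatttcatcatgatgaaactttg
mt-Co2 and Gm28661 were identical over all 681 aligned bases. mt-Nd3 and Gm28438 differed by 1 of 345 bases, T3C, counted from 1 at the start of mt-Nd3, with the base of mt-Nd3 first. mt-Cytb and Gm11410 differed by 82 of 1143 bases (92.8% identity). mt-Co2 had 2 to 10 counts per library, mt-Nd3 had 361 to 609, and mt-Cytb had 256370 to 420481. Since the pairs were picked by these counts, their order is no test of likeness against counts. mt-Co3 and mt-Nd4l, identical to their copies over 783 and 294 aligned bases, had 27 to 56 and 8 to 26 counts. mt-Nd3 and Gm28438 shared an identical run of 342 bases. Gm28438, Gm11410, Gm10222, Gm28439, Gm13339 and Gm4076 were chosen for naming after their values were seen.

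mt-Co2 and mt-Nd3 lie in a run of 10 adjacent genes, from mt-Td to mt-Nd4l (bases 6942 to 10173 of chrM, GRCm39), in which hardly any reads were counted. The run holds 6 messenger RNA genes (mt-Co2, mt-Atp8, mt-Atp6, mt-Co3, mt-Nd3 and mt-Nd4l) and 4 transfer RNA genes (mt-Td, mt-Tk, mt-Tg and mt-Tr). Its 10 genes together had 469 to 825 counts per library, which was 0.0301% to 0.0382% of the chrM counts. The other 27 members had 1504306 to 2381250 counts per library. The gene next to the run on its near side is mt-Ts1 (6870 to 6938), with 26 to 59 counts, fewer than the 38 to 110 of mt-Tg inside the run. mt-Co1, before mt-Ts1, had 538991 to 903925 counts and mt-Nd4, just after the run, had 85595 to 158793. The low run was present in every one of the 10 libraries, control and ko.

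The nuclear copies of this run lie together on the minus strand of chromosome 1 (24650616 to 24655278, GRCm39), as 7 annotated unprocessed pseudogenes in the order of the mitochondrial genes. Gm29216 matched the last 483 bases of mt-Co1 with 1 mismatch. Gm28661 (mt-Co2), Gm10925 (mt-Atp6, 678 bases), Gm28437 (mt-Co3, 783 bases) and Gm10222 (mt-Nd4l, 294 bases) matched with none, as did Gm28439 over the first 876 bases of mt-Nd4. The spacing was close too: 140 bases separated mt-Co1 from mt-Co2 and 140 separated their copies, and 230 against 233 bases lay between mt-Co2 and mt-Atp6. The pairs around mt-Tg (68 against 69 bases) and mt-Tr (70 against 74 bases) were similarly spaced. mt-Td and mt-Ts1 fall in the first of these intervals and mt-Tk and mt-Atp8 in the next. mt-Td and mt-Tk had 0 counts and mt-Atp8 0 to 7, while mt-Ts1 had 26 to 59, mt-Tg 38 to 110 and mt-Tr 24 to 67. The nuclear sequence of these intervals lies between annotated genes and was not analysed here.

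The transfer RNAs mt-Td (aspartate) and mt-Tk (lysine) are printed whole, from GENCODE M21, since they are the members without a single count.
mt-Td: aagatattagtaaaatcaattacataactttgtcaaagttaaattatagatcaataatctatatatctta
mt-Tk: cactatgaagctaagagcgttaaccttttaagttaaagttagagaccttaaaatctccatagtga
A count of 0 allows up to 3 counts, or 0.0216 to 0.0294 CPM depending on the library. This limit covers counting error only.

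A second measure of likeness was the share of a gene's 50-base windows found letter for letter in a nuclear transcript. It was 100% for mt-Co2, 99.9% for mt-Co3, 99.5% for mt-Atp6, 98.8% for mt-Nd4l and 98.0% for mt-Nd3. For mt-Nd4 it was 62.2% and for mt-Co1 51.1%, each of which is matched over only part of its length. It was 8.19% for mt-Nd2, 7.61% for mt-Nd5, 1.04% for mt-Rnr2, and 0% for mt-Rnr1, mt-Nd1, mt-Nd6 and mt-Cytb. The 5 messenger RNA genes at 98% or more had the low levels, with mt-Atp8 as the one low gene at 0%. Reads that fit several places are left out by featureCounts unless an option asks for them, and the file headers show no such option. The part of this counting rule in the low levels was not tested.

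**Figure D1:**
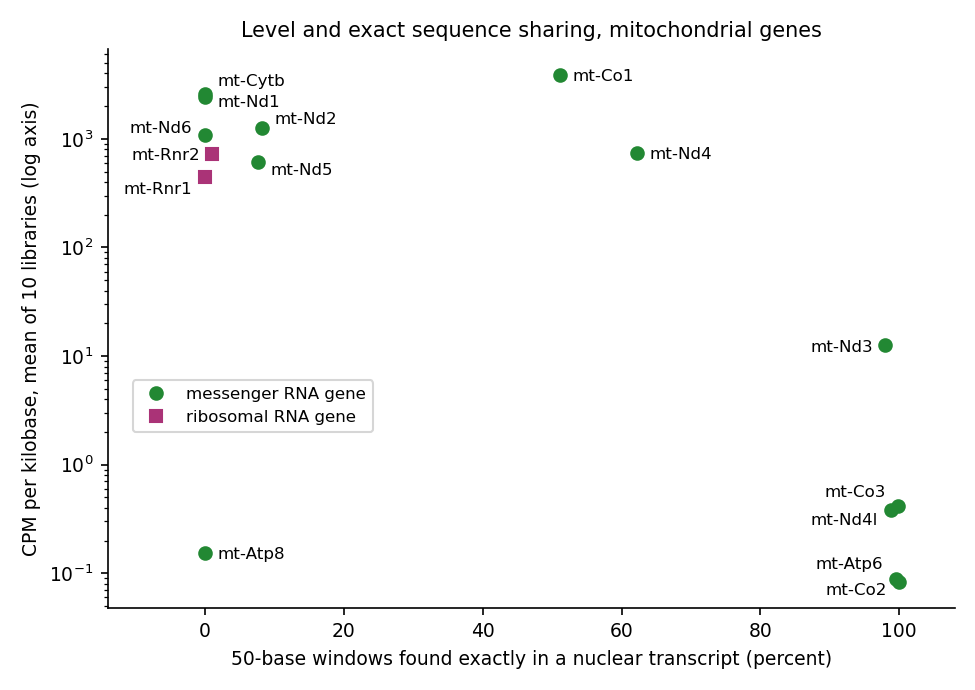
Level of the 13 messenger and 2 ribosomal RNA genes, as mean CPM per kilobase over 10 libraries (vertical, log axis), against the percent of the gene's 50-base windows found exactly in a nuclear transcript (horizontal). The genes at 98% or more sit at the bottom right, mt-Nd4 and mt-Co1 at the top with 62.2% and 51.1%, and mt-Atp8 is low at 0%.

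The chromosome 1 copies were themselves nearly uncounted, with 321 to 631 counts per library over all 7. Gm10925, the copy of mt-Atp6, had 81 to 221 counts against 1 to 14 for mt-Atp6, and Gm28661 had 56 to 126 against 2 to 10 for mt-Co2. Gm28437 had 89 to 172 counts against 27 to 56 for mt-Co3. In these 3 pairs the pseudogene thus carried more counts than the mitochondrial gene in each library, and how the reads of a pair were split cannot be told from these counts. In the pair of mt-Nd3 and Gm28438, which differ at the base given above, the mitochondrial gene had more (361 to 609 against 13 to 43). It also had more in the pair of mt-Nd4l and Gm10222 (8 to 26 against 0 to 5), which are identical over 294 bases.

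A further set of copies lies on chromosome 2, and its sequences were less alike. Gm13340 matched mt-Co1 at 97.6% over 1545 bases, Gm13341 matched mt-Co2 at 95.9%, and Gm13339 matched 510 bases of mt-Nd2 at 96.7%. Gm13340 had 77 to 155 counts and Gm13341 38 to 98. Gm4076 on chromosome 13 matched 954 bases of mt-Nd5 at 95.2% and had 0 to 7 counts. Of all these copies Gm29216 had the lowest p for the genotype, with 0.492 ± 0.112 CPM in control and 0.809 ± 0.291 CPM in ko (SD, n = 5 each). Its log2 fold change was 0.71 ± 0.274 (adjusted p = 0.338, edgeR). The other named copies with a test (Gm28439, Gm28438, Gm28437, Gm10925, Gm28661, Gm13341 and Gm13340) had adjusted p-values of 0.425 to 0.995 by edgeR.

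Outside the low run, levels were compared per length, as CPM per kilobase of gene (mean ± SD of the 5 control libraries). mt-Co1, the catalytic subunit of complex IV, was highest at 3755 ± 679. mt-Cytb, the cytochrome b of complex III, followed at 2474 ± 463 and mt-Nd1, a membrane subunit of complex I, at 2384 ± 459. The complex I genes mt-Nd2 at 1208 ± 212 and mt-Nd6 at 1056 ± 269 came next. The SD is that between libraries, and genes of the same library vary largely together. It therefore does not measure the difference between genes, and the order of neighbouring genes was not tested.

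Among the lower levels, mt-Nd4 was at 697 ± 131 and mt-Nd5 at 617 ± 155, both subunits of complex I. The ribosomal RNAs mt-Rnr2 (large subunit) and mt-Rnr1 (small subunit) were at 727 ± 175 and 446 ± 149. Of the run above, mt-Nd3 reached 11.7 ± 2.04 and the other 5 messenger RNA genes 0.0677 to 0.386. If the counts of a gene are set against only the bases outside copies of 99% identity or more, a calculation chosen after the values were seen, mt-Co1 was at 5463 ± 988 over 1062 bases and mt-Nd4 at 1912 ± 360 over 502 bases. On that scale mt-Nd4 stood above mt-Nd2 and mt-Nd5. mt-Nd5 and mt-Nd6, on opposite strands, overlap only at their ends (mt-Nd5 ends at 13565 and mt-Nd6 starts at 13552). The counts do not separate strands, so over the whole of mt-Nd6 its reads and those of antisense RNA cannot be told apart.

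Both ribosomal RNAs lay below their neighbour mt-Nd1: per base, mt-Rnr2 was at 0.272 to 0.351 of mt-Nd1 in the 10 libraries and mt-Rnr1 at 0.134 to 0.242. How the library kit selected RNA is not stated in the labels. mt-Rnr2 exceeded mt-Rnr1 per base by a factor of 1.45 to 2.03, in all 10 libraries.

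Counts per length differed widely among the transfer RNA genes. mt-Te (glutamate) was at 758 ± 219 CPM per kilobase, mt-Tp (proline) at 375 ± 86.7 and mt-Tl1 (leucine, UUR codons) at 197 ± 31.1, and the other transfer RNAs with counts lay between 0.825 (mt-Tv, valine) and 43.9 (mt-Tq, glutamine). mt-Tg (7.75) and mt-Tr (4.74), in the low run, lay within that range. The 3 highest made up 78.7% to 84.9% of the transfer RNA counts of a library. Their sequences, printed from GENCODE M21 since they hold most counts on transfer RNA genes, follow with that of mt-Tf (phenylalanine), to which the genotype comparison returns.
mt-Te: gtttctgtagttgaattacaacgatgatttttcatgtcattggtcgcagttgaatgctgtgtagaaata
mt-Tp: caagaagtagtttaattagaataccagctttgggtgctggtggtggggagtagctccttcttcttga
mt-Tl1: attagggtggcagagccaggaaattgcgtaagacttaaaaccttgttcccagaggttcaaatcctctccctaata
mt-Tf: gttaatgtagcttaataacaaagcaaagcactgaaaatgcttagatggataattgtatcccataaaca
mt-Te and mt-Tp are on the minus strand, opposite to most messenger RNAs, and mt-Te adjoins mt-Nd6 of the same strand (14071 to 14139 against 13552 to 14070). Per base, mt-Te was at 0.680 to 0.832 of mt-Nd6 in the 10 libraries. mt-Tl1 lies between mt-Rnr2 and mt-Nd1 (2676 to 2750) and adjoins both. Transfer RNA genes are 59 to 75 bases long, and many adjoin another gene. How reads that reach into a neighbouring gene were counted was not tested, and the read length is not given. Counts per length of such short genes are therefore no measure of the level of a transfer RNA. The counts do not separate mature transfer RNAs, which are short and modified, from their precursors. Nor do they separate strands, so RNA of the opposite strand over mt-Te, mt-Tp or another of these genes cannot be told apart.

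**Figure D2:**
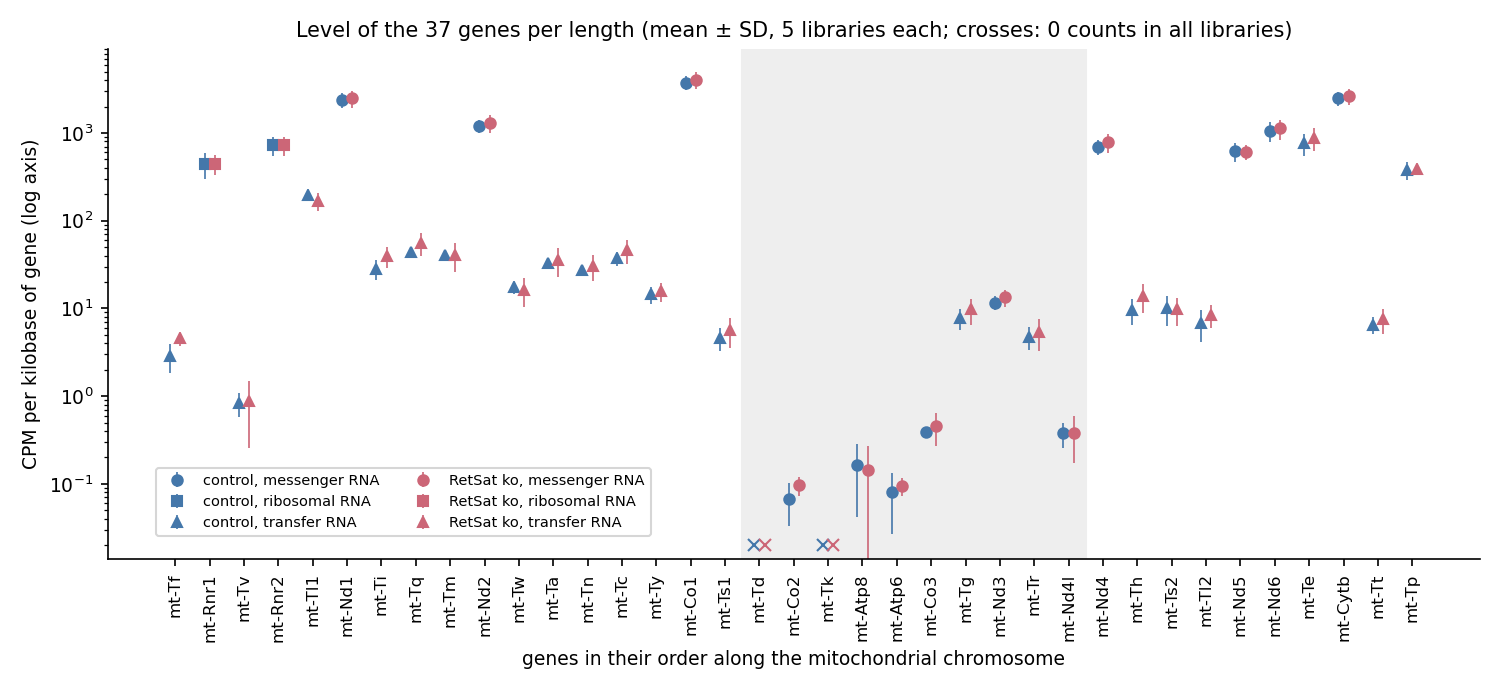
CPM per kilobase (log axis) of the 37 genes in their order on the chromosome, as mean ± SD of 5 control (blue) and 5 RetSat ko (red) libraries, with crosses for mt-Td and mt-Tk at 0 counts in all libraries. The messenger RNA genes of the shaded run from mt-Td to mt-Nd4l lie far below mt-Co1 and mt-Nd4 on either side, while mt-Tg and mt-Tr lie within the range of other transfer RNAs, and control and ko points fall close together throughout.

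The main comparison asked whether loss of Retsat in the intestinal epithelium went with another level of mitochondrial transcripts. The 37 genes took 1.66%, 1.81%, 1.83%, 1.29% and 1.35% of all counts in control 1 to 5. They took 1.92%, 1.98%, 2.17%, 1.37% and 1.55% in ko 1 to 5. The means were 1.59% ± 0.254 and 1.80% ± 0.327 (SD, n = 5 each), a difference within the spread (p = 0.286, 2-sided exact permutation test, adjusted p = 0.706 over 8 shares). The smallest p that 5 against 5 libraries allow is 0.00794. The groups overlapped, and the libraries of each group fell apart as well: libraries 4 and 5 of control and of ko were the 4 lowest of the 10.

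By class, messenger RNA genes took 1.43% ± 0.228 of counts in control and 1.62% ± 0.295 in ko (exact permutation p = 0.246). Ribosomal RNA genes took 0.152% ± 0.0383 and 0.161% ± 0.0312 (exact permutation p = 0.675). Transfer RNA genes took 0.0108% ± 0.00188 and 0.0127% ± 0.00276 (exact permutation p = 0.254). Each of these shares had overlapping groups and an adjusted p of 0.706 over the 8 shares. With the library size after TMM scaling as denominator, the difference in the share of all 37 genes was 0.10 in place of 0.207 percentage points, and that of the ribosomal share turned to -0.00033.

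**Figure D3:**
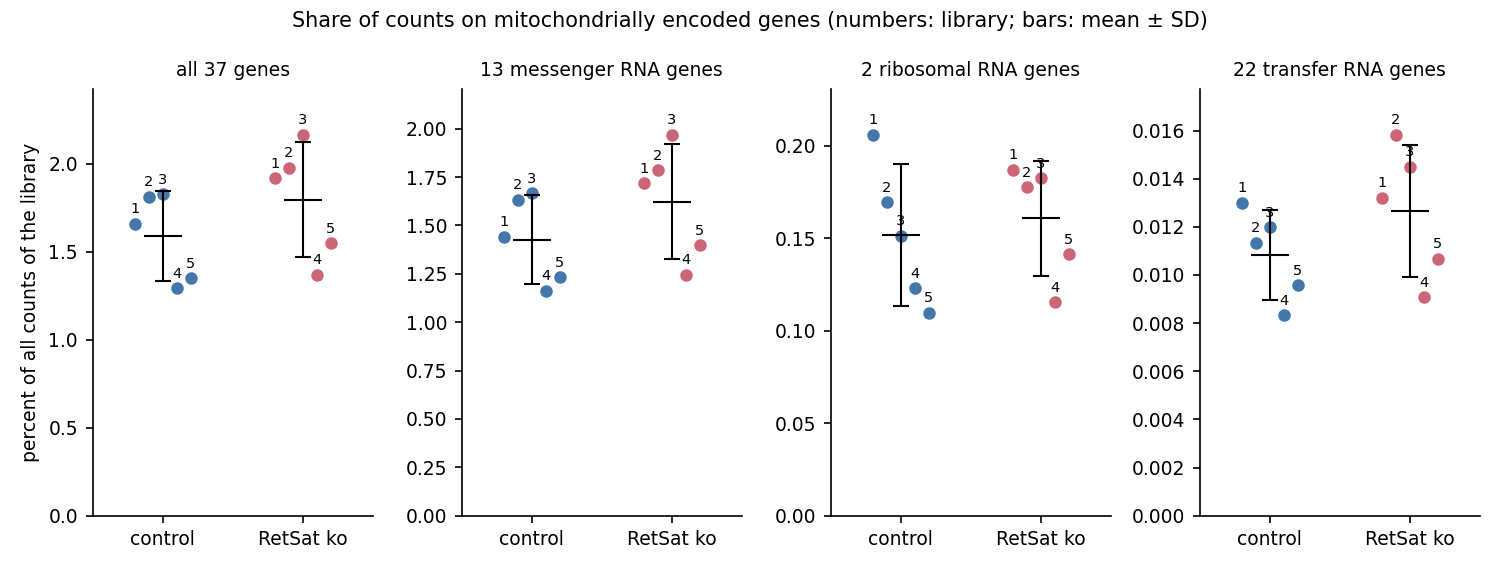
Percent of all counts of a library (vertical) on all 37 genes and on the messenger, ribosomal and transfer RNA genes, for 5 control and 5 RetSat ko libraries (points numbered by library, bars mean ± SD). All 4 panels show overlapping groups, with libraries 4 and 5 lowest among the ko libraries in each panel.

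Gene by gene, 31 of the 37 members had enough counts for the test: 10 messenger, 2 ribosomal and 19 transfer RNA genes. mt-Td, mt-Tk, mt-Co2, mt-Atp8, mt-Atp6 and mt-Tv did not pass the filter on low counts. By edgeR, 0 of the 31 passed an adjusted p of 0.05, where 0.0322% of all 18654 tested genes did. At an unadjusted p under 0.05 edgeR had 1 member, mt-Tf, against 12.2% of all genes. limma-voom also called 0 of the 31 and DESeq2 called 0 of the 18 to which it gave an adjusted p, against 0.0322% and 0.659% of all genes. At an unadjusted p under 0.05 limma-voom had 1 of the 31 (mt-Tf) and DESeq2 had 2 (mt-Tf and mt-Ti), against 12.1% and 13.2%. No member had groups that failed to overlap, as 2.31% of all genes did. The log2 fold change was above 0 in 25 of the 31, against 53.9% of all genes, and its median was 0.13, beside 0.02 over all tested genes. The members of a library vary largely together, so neither this count nor those by class below are counts of independent genes.

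The messenger RNA genes had a median log2 fold change of 0.10, with 9 of 10 above 0. mt-Co1 was at 5632, 6496, 7205, 4652 and 5026 CPM in control 1 to 5 and at 7610, 6133, 7753, 4599 and 5170 CPM in ko 1 to 5. The lowest ko value lay under every control value, and the log2 fold change was 0.11 ± 0.184 (adjusted p = 0.841, edgeR). mt-Cytb was at 2857, 3168, 3502, 2213 and 2411 CPM in control and 3550, 3273, 3606, 2229 and 2490 CPM in ko libraries (0.10 ± 0.175, adjusted p = 0.848, edgeR). In both genes ko 1 and ko 3 were the highest ko libraries and control 3 the highest control.

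The 7 complex I genes ranged from -0.03 for mt-Nd5 to 0.19 for mt-Nd3. mt-Nd1 was at 2647, 2334, 2754, 1745 and 1927 CPM in control and at 3014, 2676, 2565, 1759 and 1916 CPM in ko libraries (0.06 ± 0.179, adjusted p = 0.908, edgeR). mt-Nd4 was at 982, 1084, 1175, 739 and 821 CPM in control and at 1259, 1173, 1362, 724 and 861 CPM in ko libraries (0.16 ± 0.185, adjusted p = 0.747, edgeR). In both genes the lowest values were those of libraries 4 and 5 of either group, and the groups overlapped. mt-Nd6, the one messenger RNA gene of the minus strand, was at 712, 546, 657, 375 and 452 CPM in control and at 714, 730, 632, 392 and 463 CPM in ko libraries (0.10 ± 0.211, adjusted p = 0.880, edgeR).

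The ribosomal RNAs had the smallest differences. mt-Rnr2 was at 1534, 1210, 1244, 893 and 868 CPM in control and 1531, 1207, 1238, 792 and 957 CPM in ko libraries, a log2 fold change of -0.0059 ± 0.197. mt-Rnr1 was at 639, 454, 435, 342 and 258 CPM in control and 574, 441, 485, 280 and 356 CPM in ko libraries, with a log2 fold change of 0.0048 ± 0.247. Control 1 and ko 1 were the highest of their groups for both RNAs. The sign of mt-Rnr1 turned with the RLE factors and that of mt-Rnr2 with the upper-quartile factors, so neither has a direction.

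Among the 19 tested transfer RNA genes, 15 had a log2 fold change above 0, with a median of 0.19. mt-Tf, the first gene after the control region, had the largest. It was at 0.176, 0.269, 0.271, 0.138 and 0.120 CPM in control and at 0.392, 0.334, 0.275, 0.300 and 0.245 CPM in ko libraries. Of the ko libraries only ko 5 lay under the highest control value, 0.271. The log2 fold change was 0.66 ± 0.289 (adjusted p = 0.394, edgeR), and it rests on 13 to 40 counts per library.

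mt-Ti (isoleucine) was at 2.67, 2.29, 1.73, 1.75 and 1.36 CPM in control and at 3.46, 2.73, 3.48, 1.75 and 2.23 CPM in ko libraries (0.48 ± 0.229, adjusted p = 0.424, edgeR). mt-Th (histidine) had 0.52 ± 0.319 and mt-Tq (glutamine) 0.34 ± 0.192, with adjusted p-values of 0.525 and 0.487 by edgeR. In mt-Ti 3 ko libraries exceeded every control library, and ko 4 and ko 5 lay within the control range. The most negative member was mt-Tl1, at 15.0, 13.7, 18.5, 12.2 and 14.6 CPM in control and at 15.7, 14.8, 13.7, 8.70 and 10.1 CPM in ko libraries (-0.23 ± 0.165, adjusted p = 0.589, edgeR). Its low values were those of ko 4 and ko 5.

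The other 2 transfer RNA genes with high counts were mt-Te and mt-Tp. mt-Te was at 73.2, 51.9, 59.6, 33.9 and 43.1 CPM in control and at 68.3, 80.8, 69.5, 38.8 and 45.3 CPM in ko libraries (0.21 ± 0.249, adjusted p = 0.761, edgeR). mt-Tp was at 28.2, 22.4, 33.9, 19.8 and 21.4 CPM in control and at 33.0, 25.8, 25.1, 22.7 and 24.7 CPM in ko libraries (0.06 ± 0.150, adjusted p = 0.894, edgeR). The groups overlapped in both genes. The transfer RNAs for glycine (mt-Tg, 0.32), cysteine (mt-Tc, 0.30), serine (mt-Ts1, 0.30), leucine CUN (mt-Tl2, 0.29), threonine (mt-Tt, 0.19), arginine (mt-Tr, 0.19), asparagine (mt-Tn, 0.15), alanine (mt-Ta, 0.13) and tyrosine (mt-Ty, 0.11) had log2 fold changes above 0. Those for methionine (mt-Tm, -0.01), serine AGY (mt-Ts2, -0.04) and tryptophan (mt-Tw, -0.11) were below 0, and none of these passed the test.

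**Figure D4:**
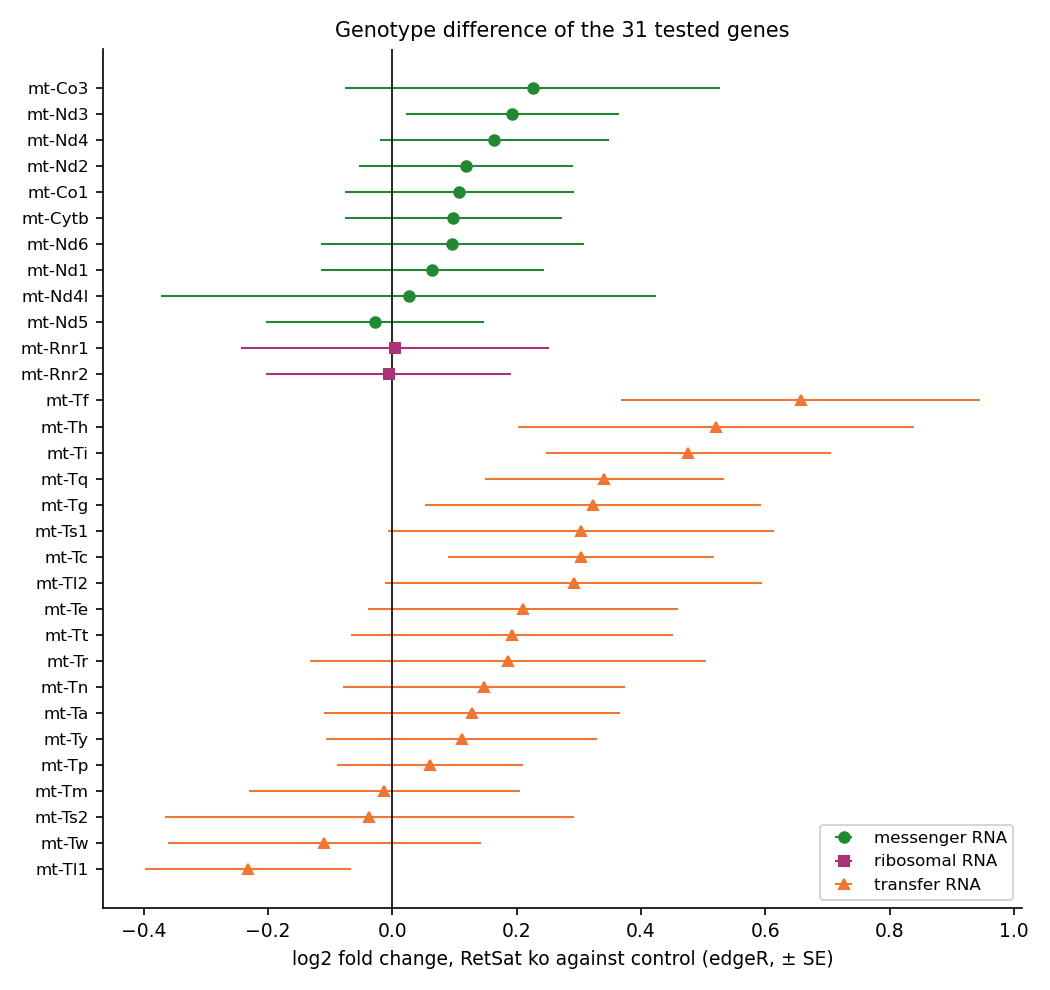
Log2 fold change of RetSat ko against control for the 31 tested genes, by class (edgeR, bars ± SE, 5 libraries per group). The messenger RNAs lie between -0.03 and 0.23, the ribosomal RNAs at 0, and the transfer RNAs between -0.23 for mt-Tl1 and 0.66 for mt-Tf.

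In the low run, mt-Co3 had 0.23 ± 0.302, mt-Nd3 0.19 ± 0.171 and mt-Nd4l 0.03 ± 0.398 as log2 fold changes. mt-Nd3, a complex I subunit, was at 4.73, 3.69, 4.80, 3.12 and 3.97 CPM in control and at 5.97, 5.18, 4.68, 3.34 and 4.05 CPM in ko libraries (adjusted p = 0.672, edgeR). mt-Co2 and mt-Co3, subunits of complex IV, and mt-Atp6 and mt-Atp8, subunits of complex V, had 0 to 56 counts per library, so that complex V had no messenger RNA with a test.

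Within the mitochondrial counts, the composition was steadier than the total. mt-Co1 made up 39.2% ± 1.33 of the messenger RNA counts in control and 39.6% ± 1.68 in ko libraries, and mt-Cytb 19.1% ± 0.373 and 19.2% ± 0.530 (SD, n = 5 each). mt-Nd1 made up 15.4% ± 1.14 and 15.1% ± 0.890, mt-Nd2 8.49% ± 0.417 and 8.61% ± 0.495, and mt-Nd4 6.48% ± 0.168 and 6.77% ± 0.434. mt-Nd5 was at 7.57% ± 0.828 and 7.03% ± 0.526, and mt-Nd6 at 3.68% ± 0.575 and 3.69% ± 0.420. The coefficient of variation of these shares over the 10 libraries was 2.27% for mt-Cytb to 12.9% for mt-Nd6, and that of their CPM was 19.1% to 24.5%. Shares of 1 sum are not independent of each other.

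The complex I genes together made up 41.7% ± 1.62 of messenger RNA counts in control and 41.2% ± 1.65 in ko libraries (exact permutation p = 0.690). The ribosomal share of chrM counts was 9.53% ± 1.72 and 8.94% ± 0.548 (exact permutation p = 0.627), with control 1 at 12.4%. Without control 1 the ribosomal difference became 0.132 and the complex I difference 0.203 percentage points, both of the opposite sign. The transfer RNA share of chrM counts was 0.683% ± 0.0637 and 0.702% ± 0.0559 (exact permutation p = 0.579). The share of minus-strand genes was 3.84% ± 0.512 and 3.91% ± 0.420 (exact permutation p = 0.706). The counts do not separate strands, so the latter share can also hold plus-strand RNA over these genes and does not measure minus-strand RNA alone. The transfer RNA share was highest in ko 2 (0.800%) and control 1 (0.782%), and the minus-strand share likewise (4.64% and 4.70%). These shares are not independent, since mt-Te (8965 counts in ko 2, 7893 in control 1) and the other minus-strand transfer RNA genes enter both. Without ko 2 both differences turned, to -0.0054 and -0.11 percentage points. The acinar markers summed to 2519 CPM in ko 2 and to 9.24 CPM in control 1, and their part in these shares was not tested.

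When the members were scaled to the chrM messenger RNA counts of each library in place of the whole library, edgeR called 0 of 31. The 3 members at an unadjusted p under 0.05 (9.68% of the 31) were mt-Tl1 at -0.34 ± 0.127, mt-Tf at 0.59 ± 0.231 and mt-Ti at 0.35 ± 0.163. Their adjusted p-values over the 31 members in this fit were 0.177, 0.177 and 0.328 by edgeR.

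**Figure D5:**
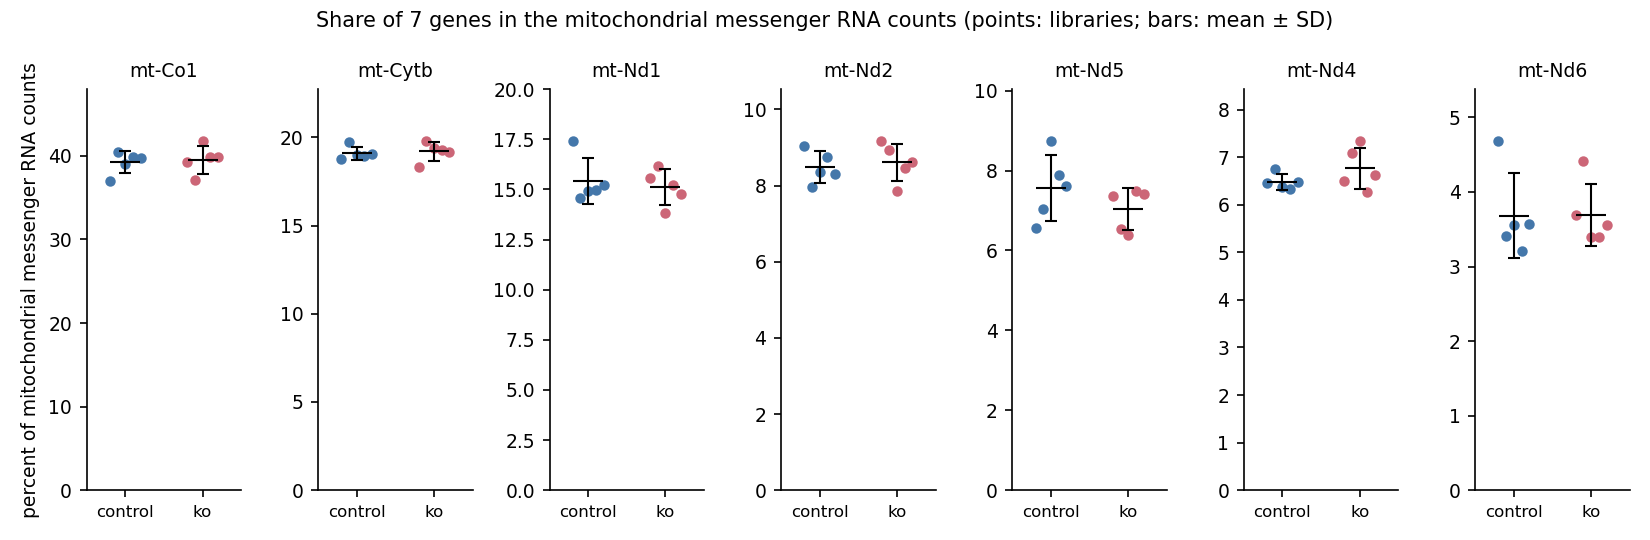
Percent of the mitochondrial messenger RNA counts (vertical, each panel from 0) taken by the 7 genes outside the low run, in 5 control and 5 RetSat ko libraries (points, bars mean ± SD). The groups overlap in each panel, and control 1 stands highest for mt-Nd1 and mt-Nd6.

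The nuclear genes that make and process these RNAs were read from a list of 87 in 8 groups, of which 86 were matched and tested. edgeR called 0 of the 86 (0.0322% of all genes), limma-voom called 0 as well, and DESeq2 0 of the 84 to which it gave an adjusted p. The log2 fold change was above 0 in 65 and below 0 in 21, with a median of 0.085, beside 53.9% of all genes above 0. At an unadjusted p under 0.05, 15 were higher and 4 lower (Polg2, Nsun3, Ppargc1a and Gabpa) in ko libraries, where 6.79% and 5.45% of all genes were. For 4 genes the groups did not overlap (Rpusd4, Cars2, Trmt61b and Mterf4, beside 2.31% of all genes). Nsun3, Ppargc1a, Gabpa and Mterf4 were named after their values were seen.

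The lowest p-values were those of Mrm3, Ssbp1, Polg2 and Rpusd4. Mrm3, a methyltransferase of the mitochondrial large ribosomal RNA, was at 6.77, 7.30, 6.58, 6.46 and 7.09 CPM in control and at 7.05, 8.93, 8.67, 10.3 and 10.8 CPM in ko libraries (0.42 ± 0.113, adjusted p = 0.291, edgeR). Rpusd4, a pseudouridine synthase of the same RNA, was at 12.3 ± 0.306 and 14.3 ± 1.17 CPM (0.22 ± 0.0718, adjusted p = 0.314, edgeR). For Mrm3 ko 1 alone lay within the control range, and for Rpusd4 the groups did not overlap.

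In replication, Ssbp1, which coats single-stranded mitochondrial DNA, was at 15.6 ± 1.51 and 18.9 ± 1.26 CPM (0.28 ± 0.0818, adjusted p = 0.291, edgeR). Polg2, the accessory subunit of the mitochondrial DNA polymerase, was at 16.1 ± 0.779 and 13.9 ± 0.835 CPM (-0.21 ± 0.0679, adjusted p = 0.307, edgeR). Of the 10 replication genes 5 were above 0 and 5 below. The transcription group had 7 of 9 above 0, with Mterf1a, a transcription termination factor, at 0.35 ± 0.163 (adjusted p = 0.408, edgeR).

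The groups that handle RNA were mostly above 0 without a call. In cleavage and processing 10 of 12 were above 0, with Fastkd5 at 0.27 ± 0.0987, and in stability and decay 6 of 8, with the exonuclease Rexo2 at 0.20 ± 0.0769. Ribosomal RNA modification and assembly had 9 of 11 above 0, the highest median of the 8 groups at 0.16. Transfer RNA modification had 10 of 12 above 0, with the methyltransferase Trmt61b at 0.32 ± 0.122, and the aminoacyl-tRNA synthetases 13 of 17, with Cars2, the enzyme for cysteine, at 0.17 ± 0.0583. Among the regulators of biogenesis 5 of 7 were above 0, at a median of 0.019, with the coactivator Pprc1 at 0.34 ± 0.126. Below 0 in that group were Ppargc1a at -0.33 ± 0.130 and Gabpa at -0.20 ± 0.0810. The adjusted p-values of Fastkd5, Rexo2, Trmt61b, Cars2 and Pprc1 lay between 0.321 and 0.338 by edgeR.

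Calls over all genes rose when ko 1 was left out, and this rise was not particular to the list of 86. With all libraries edgeR called 6 of 18654 genes. Without ko 1 it called 846 of 19001 (4.45%, of which 1.95% higher and 2.50% lower), and 5 of the 86, a share close to that of all genes. Mrm3 (0.50), Pprc1 (0.45), Trmt10c (0.32) and Rexo2 (0.26) were then higher and Ppargc1a (-0.44) lower in ko libraries, with adjusted p-values of 0.0263 to 0.0444. Trmt10c belongs to the nuclease complex that cuts transfer RNAs at their start, and Ppargc1a is a coactivator of mitochondrial biogenesis. Trmt10c too was named after its values were seen. Of the mitochondrial members 0 were called without ko 1, and 0 had an unadjusted p under 0.05 there, where 23.7% of all genes did. edgeR also called 0 members without each of the other libraries in turn.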

How the data were processed

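RNA of whole jejunum was sequenced in 10 libraries, 5 per genotype, as labelled. The deposited values are raw counts per gene: per the file headers the authors used featureCounts 2.0.1 on exons of GENCODE M28, with no option for strand, read pairs or multiply mapping reads, and per the submitters' processing notes Trimmomatic, STAR and GRCm39 (mm39). Library selection and read length are not given in the sources used here. Depth was 102844680 to 128730695 counts per library.

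Members were all genes on chrM. The members and lists were chosen with earlier results of these data known. All genes were tested with edgeR 4.0.16 (R 4.3.3, filterByExpr, TMM, robust quasi-likelihood, Benjamini-Hochberg over 18654 genes, threshold 0.05). On simulated data this test recovered 58% of genes changed 1.5-fold, 72% changed 2-fold and 98% changed 4-fold (50 genes each), with 6 false calls. Smaller changes were not simulated, so 0 calls do not exclude them. DESeq2 1.42.0, limma-voom 3.58.1, other scaling factors, no filter, and leaving out each library were alternatives. Shares were compared by 2-sided exact permutation tests (scipy 1.17.1), adjusted over 8 shares. Nuclear copies were found with blastn 2.17.0 (identity of at least 95% over at least 100 bases) in GENCODE M21 transcripts, matched to the counts by gene identifier. Coordinates are those of the counts (GRCm39). The machinery genes named were the 4 with the lowest p and the lowest of each group, and the copies named were the 6 with the highest mean count. Names outside these rules are stated as such.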

Additional observations from a re-analysis of the deposited data

Results flagged for a closer look

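In groups of 5 libraries, the highest or lowest library was set against the others by its gap over the range (Dixon's critical value 0.71). Of 78 groups examined, 4 held such a library, and chance gives about 1 in 20. The transfer RNA share of chrM counts was 0.800% in ko 2 against 0.663% to 0.689% in the other ko libraries. The minus-strand share was 4.64% in ko 2 against 3.63% to 3.86%. It holds mt-Te and other genes that also enter the transfer RNA share, so these flags are not independent. The CPM of mt-Tc, the transfer RNA for cysteine, was 3.19 in control 2 against 2.06 to 2.38 in the other controls. The CPM of mt-Nd4l was 0.223 in ko 3 against 0.0675 to 0.101, which rests on 26 counts.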

How the results depend on the processing

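No member passed the threshold under any of 558 alternatives of the 31 log2 fold changes (lowest adjusted p 0.177), though DESeq2 gave 13 of them no adjusted p. The direction was kept in 514 and turned in 44, spread over 12 members. The turned values without a library left out were those of mt-Rnr1 (-0.0038 with RLE factors, -0.0038 with DESeq2, -0.099 scaled to chrM messenger RNA), mt-Rnr2 (0.011, upper-quartile), mt-Tm (0.0033, upper-quartile), mt-Nd1 (-0.029), mt-Ta (-0.032) and mt-Tp (-0.0012) scaled to chrM messenger RNA, and mt-Nd4l (-0.030 with the replicate block, -0.056 with limma-voom, -0.061 scaled). The ribosomal share of counts turned to -0.00033 with the TMM-adjusted denominator. The cause was not tested.

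Genes past the threshold numbered 123 with DESeq2, and 5 to 846 with 1 library left out, the highest without ko 1. Machinery genes numbered 0 to 5 in the same way. Leaving out each library in turn gave these ranges of log2 fold change: mt-Nd1 -0.033 to 0.16, mt-Nd4l -0.36 to 0.18, mt-Nd5 -0.14 to 0.14, mt-Nd6 -0.015 to 0.21, mt-Rnr1 -0.13 to 0.20, mt-Rnr2 -0.13 to 0.12, mt-Ta -0.038 to 0.29, mt-Tm -0.21 to 0.12, mt-Tp -0.035 to 0.19, mt-Tr -0.033 to 0.36, mt-Ts2 -0.18 to 0.16 and mt-Tw -0.26 to 0.036. The ranges in percentage points were -0.0016 to 0.0225 for the ribosomal share of counts, -0.94 to 0.132 for the ribosomal share of chrM, -0.91 to 0.203 for complex I, -0.11 to 0.285 for the minus strand and -0.0054 to 0.0440 for the transfer RNA share of chrM.

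Same-numbered libraries of the groups had correlated deviations of -0.15 to 0.0021, all under the 0.1 taken as needed for a pairing, and the labels do not say what a number marks. Ko 1, for example, correlated better with control 5 (0.103) than with control 1 (0.0021). Differently numbered libraries ranged from -0.36 (control 3 and ko 2) to 0.37 (control 4 and ko 2), so a value past 0.1 does not by itself mark a pairing. The chrM share nevertheless was lowest in libraries 4 and 5 of both groups, so whether equal numbers share a batch is not known. With the replicate block edgeR called 4 genes and 0 members, and the shares of counts on all chrM genes, on messenger RNA genes and on transfer RNA genes were each higher in ko in 5 of 5 same-numbered pairs. Each gave p = 0.0625 in an exact sign-flip test (adjusted p = 0.167 over 8 shares), which is the smallest p that 5 pairs allow, against exact permutation p-values of 0.246 to 0.286 without the block.

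Members with few counts have wide counting errors, and mt-Td and mt-Tk had no counts to compare. For mt-Co2, mt-Atp6, mt-Co3, mt-Nd4l, mt-Nd3, mt-Co1 and mt-Nd4, which share exact 50-base windows with nuclear transcripts over much of their length, the effect of the counting rule was not tested.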
